A study of Mus musculus with 8 samples.

Results

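Polysomal mRNA of 9 enzymes that burn pyruvate in the mitochondrion was followed from the mouse egg to the one-cell embryo. The enzymes are Pdha1 and Dlat of the pyruvate dehydrogenase complex and Cs, Idh3a, Ogdh, Dlst, Sdha, Fh1 and Mdh2 of the citric acid cycle. Every probe set whose annotated gene symbol is one of these names was taken, which gave 25 of the 45101 probe sets on the array, with at least 1 for each of the 9 genes. Polysomes, clusters of ribosomes on mRNAs under translation, were isolated from batches of 160 to 500 eggs or embryos, and their RNA went through 2 rounds of amplification before hybridization. Of the 8 arrays, 4 (n = 4) held oocytes arrested at metaphase II (MII oocytes), the stage at which the egg is ovulated, with no treatment named in the labels. The other 4 held one-cell embryos treated with alpha-amanitin, which blocks RNA polymerase II. The 4 arrays of a stage are described as independent replicates. No strain, age or hour of collection is given in the labels, and stage and alpha-amanitin changed together, so the 2 cannot be told apart. The comparison addresses how the polysomal signal of maternal mRNAs differs between these stages.

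Pyruvate enters the mitochondrion through a carrier and is turned into acetyl-CoA by the pyruvate dehydrogenase complex, which kinases switch off and phosphatases switch on again. The citric acid cycle then oxidizes the acetyl group, and the electrons pass to the respiratory chain. Pyruvate, rather than glucose, is the main fuel of the mouse egg and of the embryo before its first division, and the enzymes that use it are made from maternal mRNA at this time.

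Intensities are in arbitrary units and were scaled by array to a common mean, and detection calls were not used. Signals of different probe sets are not on one scale, so changes are read within a probe set. Sums and ratios over probe sets are given only to describe how they differ between arrays, and bright probe sets weigh most in a sum. An array holds polysomal RNA of pooled eggs or embryos. Fewer cells with an mRNA and less of that mRNA per cell therefore cannot be told apart. Nor can the amount of an mRNA and its loading on ribosomes. Of the 12 oocyte markers examined, 11 lay above the array median on all 8 arrays. The summed signal of the 12 was 68355 to 97126 on the MII arrays and 51873 to 87111 on the one-cell arrays. The sum hides changes in both directions. By their log2 changes, 4 were called higher in embryos (Nobox 3.77, Nlrp5 1.09, Bmp15 0.87 and Zp2 0.82). Another 2 were called lower (Mos -5.57 and Gdf9 -2.17). Over all genes 20.1% were higher and 14.7% lower. The 12 cumulus and granulosa cell markers with a probe set summed to 439 to 592 on the MII arrays, to 1309 on one-cell array 1 and to 360 to 684 on the other one-cell arrays. Of the 7 that were tested, Cyp11a1 was higher in embryos (1.26 ± 0.43, adjusted p = 0.032) and Gja1 lower (-1.54 ± 0.46, adjusted p = 0.0166). The 10 sperm and testis markers summed to 198 to 397 in oocytes and 243 to 570 in embryos, with 4 never above the median. Of the 5 tested, Prm2 was higher in embryos (30.3 ± 12.5 to 152 ± 69.3, SD, n = 4; adjusted p = 0.00103) and Akap4 lower (-1.77 ± 0.41, adjusted p = 0.00333). The part of these cells in the results was not tested. One-cell array 1 stood apart: its median was 71.8 against 26.9 to 37.9 on the other arrays, and its hybridization controls had a geometric mean of 14879 against 857 to 3718. Each fit was repeated without it, with array weights and with the hybridization controls as a covariate.

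Of the 25 probe sets, 20 lay above the array median on at least 4 of the 8 arrays and entered the test. In one-cell embryos 7 of them were higher and 2 lower. Of all 23336 probe sets tested 32.1% passed, with 19.3% higher and 12.8% lower. The 7 and 2 are 35% and 10% of the 20, which stand for only 9 mRNAs. The groups did not overlap in the same 7 and 2, against 19.3% and 13.3% of all probe sets and 32.6% in either direction. Counted by the brightest tested probe set of each gene, Dlst, Mdh2 and Pdha1 were higher, Sdha was lower, and Dlat, Cs, Idh3a, Ogdh and Fh1 did not pass; over all 12359 genes 34.8% passed, 20.1% higher and 14.7% lower. The groups did not overlap in those 3 and 1, against 19.9% and 15.3% of all genes and 35.2% in either direction. The median log2 change of the 20 was 0.24 against 0.17 for all probe sets, a gap of 0.07. The gap widened to 0.35 without one-cell array 1 and to 0.77 with the hybridization controls as a covariate. It was gone without one-cell array 3 (-0.09), MII array 2 (-0.02) or one-cell array 2 (-0.005). Each change is the embryo mean less the oocyte mean of log2(intensity + 10), which understates the change of dim mRNAs. Passing means a limma adjusted p under 0.05.

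**Figure D1:**
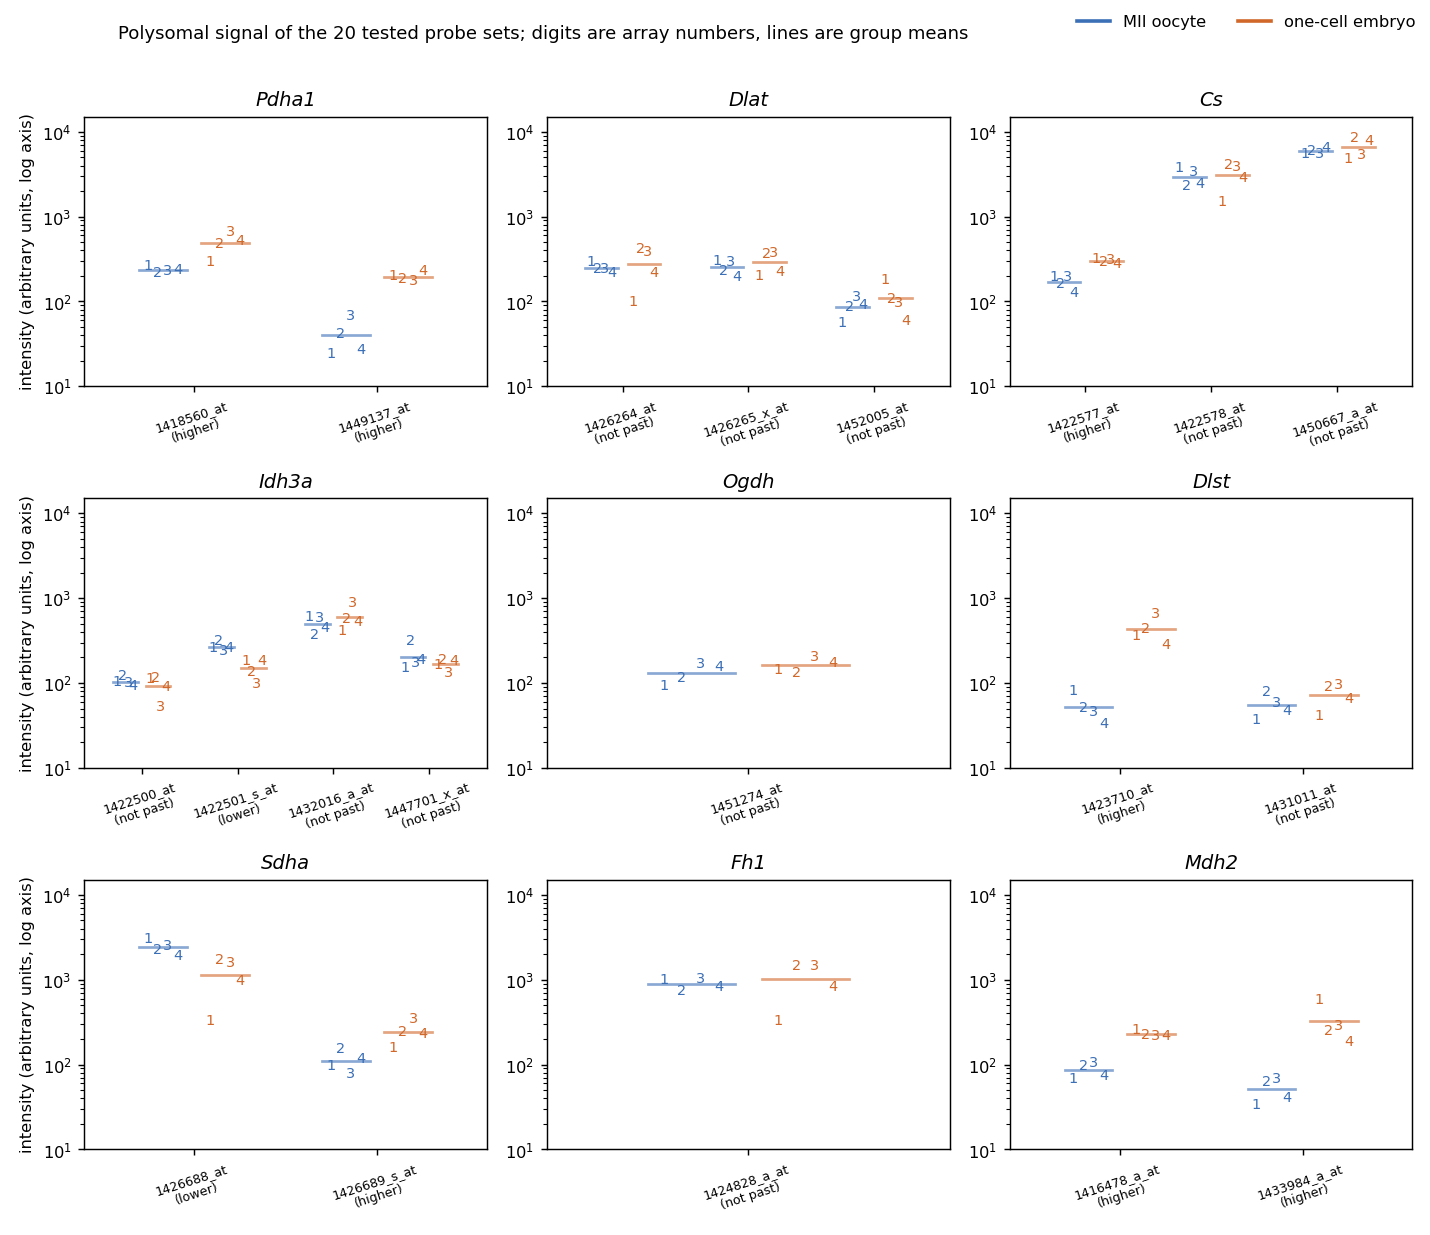
Intensity (log axis, arbitrary units) of each tested probe set of the 9 genes, with MII oocytes in blue and one-cell embryos in orange. Digits are array numbers, lines are group means, and the call is printed under each probe set: Dlst 1423710_at rises from 32.5 to 79.6 in oocytes to 281 to 653 in embryos, and Sdha 1426688_at and 1426689_s_at move in opposite directions.

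Pdha1 encodes the alpha subunit of the E1 component, which decarboxylates pyruvate and carries the serines that the kinases phosphorylate. Both of its probe sets rose. Probe set 1418560_at read 264, 216, 229.6 and 233 on MII arrays 1 to 4 and 291, 471, 653 and 517 on one-cell arrays 1 to 4. The lowest embryo value, on array 1, lay just above the highest oocyte value. The change was 0.95 ± 0.29 (SE, adjusted p = 0.018), or 2.05-fold between the means. Probe set 1449137_at read 24.2, 41.3, 67.4 and 27.1 in oocytes and 197, 183, 175 and 227 in embryos. These groups lay far apart, although MII arrays 1 and 4 were below their array medians. The change was 2.11 ± 0.34 (adjusted p = 0.000155). The call of 1418560_at was lost after quantile normalization (0.66, adjusted p = 0.122) and median centring (0.64, adjusted p = 0.329), and without one-cell array 3 (0.79, adjusted p = 0.0591) or 4 (0.90, adjusted p = 0.0531), while 1449137_at passed in every alternative. Averaged over its probe sets, Pdha1 changed by 1.53 ± 0.23 (adjusted p = 0.000185).

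Dlat encodes the E2 core of the same complex, the lipoyl-bearing acetyltransferase that hands the acetyl group to coenzyme A. None of its 3 probe sets passed, and the groups overlapped in each. The brightest, 1426265_x_at, read 301, 227, 291 and 194 in oocytes and 202, 363, 373 and 225 in embryos. Embryo arrays 2 and 3 were above all oocyte arrays and arrays 1 and 4 lay within their range. Its change was 0.16 ± 0.30 (adjusted p = 0.737), with a 95% interval of -0.47 to 0.79. The changes of 1426264_at and 1452005_at were -0.02 ± 0.38 and 0.27 ± 0.36 (adjusted p = 0.983 and 0.628). Probe set 1426264_at was at 98.9 on one-cell array 1 and at 215 to 412 on the other 3, and without that array it changed by 0.39 ± 0.28 (adjusted p = 0.321).

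Citrate synthase, Cs, joins acetyl-CoA to oxaloacetate and opens the cycle. Its bright probe sets did not pass. Probe set 1450667_a_at read 5523, 5968, 5509 and 6496 in oocytes and 4751, 8378, 5372 and 7728 in embryos. The embryo arrays lay on both sides of the oocyte arrays, and the change was 0.12 ± 0.34 (adjusted p = 0.835, 95% interval -0.60 to 0.84). Probe set 1422578_at changed by -0.02 ± 0.36 (adjusted p = 0.982), with means of 2949 ± 686 and 3069 ± 1190 (SD, n = 4). The dimmer probe set 1422577_at rose, from 194, 160.5, 196 and 125 to 319.8, 288, 309 and 275. Its embryo values were close together and above every oocyte value, and it changed by 0.80 ± 0.27 (adjusted p = 0.0311). That call did not hold in 12 of 20 alternatives, with adjusted p from 0.0521 to 0.326 in those 12, and leaving out MII array 2 or 4 or one-cell array 2, 3 or 4 was enough to end it. After quantile normalization 1422577_at changed by 0.43 (adjusted p = 0.248), while 1450667_a_at then passed (0.60 ± 0.19, adjusted p = 0.0344). The mean of the 3 probe sets changed by 0.30 ± 0.24 (adjusted p = 0.379).

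Idh3a encodes the catalytic alpha subunit of the NAD-dependent isocitrate dehydrogenase. Of its 4 probe sets, 1422501_s_at fell and the other 3 did not pass. Probe set 1422501_s_at read 260, 314, 239 and 256 in oocytes and 184, 135, 98.5 and 182 in embryos. Every embryo value was below every oocyte value, and the change was -0.83 ± 0.29 (adjusted p = 0.0369). The brightest probe set, 1432016_a_at, read 601, 373, 589.8 and 443 and then 406, 572, 865 and 528, with overlapping groups and a change of 0.21 ± 0.30 (adjusted p = 0.654). Probe sets 1422500_at and 1447701_x_at changed by -0.20 ± 0.32 and -0.25 ± 0.30 (adjusted p = 0.694 and 0.579). The call of 1422501_s_at was lost in 9 of 20 alternatives (adjusted p from 0.0576 to 0.105), among them leaving out any 1 MII array or one-cell array 2 or 3 and fitting the replicate number as a block (adjusted p = 0.0603). The mean of the 4 probe sets changed by -0.27 ± 0.21 (adjusted p = 0.364), so no direction is settled for Idh3a.

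Ogdh and Dlst are the E1 and E2 components of the 2-oxoglutarate dehydrogenase complex, built like pyruvate dehydrogenase. Dlst, the lipoyl-bearing succinyltransferase, had the smallest p of the 20 probe sets. Probe set 1423710_at read 79.6, 50.5, 45.2 and 32.5 in oocytes and 363, 434, 653 and 281 in embryos. The lowest embryo array was well above the highest oocyte array, and the means differed 8.33-fold. The change was 2.82 ± 0.33 (adjusted p = 9.85e-06), and it ranged from 2.21 to 3.18 over 20 alternatives and passed in each. Probe set 1431011_at read 36.9, 78.8, 58.6 and 47.1 in oocytes and 40.7, 89.3, 96.1 and 65 in embryos. Here the groups overlapped, the change was 0.32 ± 0.37 (adjusted p = 0.570), and the mean of the 2 probe sets was 1.57 ± 0.28 (adjusted p = 0.000715). Its other probe sets, 1430161_at and 1437775_at, lay at or below the array median on 8 and 7 of the 8 arrays and were not tested. They read 1.5 to 3.1 and 0.9 to 22 in oocytes and 1.8 to 38.2 and 3 to 122.1 in embryos.

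Ogdh, the decarboxylating component, did not pass. Probe set 1451274_at read 91.9, 114, 167 and 157 in oocytes and 141.5, 132, 205 and 173 in embryos. The groups overlapped, with a change of 0.30 ± 0.30 (adjusted p = 0.516, 95% interval -0.34 to 0.93). The second probe set, 1445632_at, was below the array median on all 8 arrays, at 2.1 to 12.5.

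Sdha encodes the flavoprotein of succinate dehydrogenase, which is also complex II of the respiratory chain. Its tested probe sets gave opposite calls. Probe set 1426688_at read 3034, 2219, 2499 and 1908 in oocytes and 323, 1719, 1591 and 969.8 in embryos. All embryo values were below the oocyte values, with one-cell array 1 far below the other 3. The change was -1.29 ± 0.43 (adjusted p = 0.0294). Probe set 1426689_s_at read 95.9, 151, 78.3 and 118 and then 159, 245, 342 and 228.5. All embryo values were above the oocyte values, and the change was 1.06 ± 0.31 (adjusted p = 0.016). Without one-cell array 1, the changes were -0.78 ± 0.28 and 1.24 ± 0.28, and both passed (adjusted p = 0.0404 and 0.00302). When the hybridization controls entered the fit as a covariate, the fall shrank to -0.35 ± 0.34 (adjusted p = 0.493) and the rise held (1.40, adjusted p = 0.00528). Both calls were lost after quantile normalization (-1.09 and 0.50, adjusted p = 0.105 and 0.308) and after centring (-1.61 and 0.74, adjusted p = 0.0887 and 0.218). Leaving out MII array 1, MII array 3 or one-cell array 4 also ended the call of the fall (adjusted p = 0.0838, 0.0659 and 0.0628). Leaving out the third array of either stage ended that of the rise (adjusted p = 0.0643 for MII and 0.0532 for one-cell). Averaged over both probe sets, Sdha changed by -0.12 ± 0.32 (adjusted p = 0.819), so the direction of Sdha is not settled. Probe sets 1433292_at and 1433293_at, at 5.4 to 72.1 and 1.9 to 47.1 over the 8 arrays, did not enter the test.

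Fh1, the fumarase that hydrates fumarate to malate, has a single probe set and did not pass. Probe set 1424828_a_at read 979.6, 728, 1009 and 812 in oocytes and 328, 1460.2, 1442 and 818 in embryos. One-cell array 1 lay below every oocyte array and arrays 2 and 3 above every one. The change was -0.01 ± 0.40 (adjusted p = 0.992, 95% interval -0.85 to 0.83), and 0.45 ± 0.27 without one-cell array 1 (adjusted p = 0.234). With the control covariate it was 0.87 ± 0.31 (adjusted p = 0.0506).

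Mdh2, the mitochondrial malate dehydrogenase, regenerates oxaloacetate and closes the cycle. Both of its probe sets rose. Probe set 1416478_a_at read 67.9, 97, 105 and 72.6 in oocytes and 255, 222.5, 214 and 217 in embryos, a narrow band well above the oocyte arrays. The change was 1.33 ± 0.28 (adjusted p = 0.00172). Probe set 1433984_a_at read 33.7, 63.1, 67.9 and 40.2 and then 571, 248, 285 and 187. One-cell array 1 was the brightest, and the other 3 were still above every oocyte array. The change was 2.36 ± 0.36 (adjusted p = 0.000107), and 2.05 ± 0.29 without one-cell array 1 (adjusted p = 7.56e-05). Both probe sets passed in all 20 alternatives, with changes of 0.87 to 1.42 and 1.76 to 2.57.

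**Figure D2:**
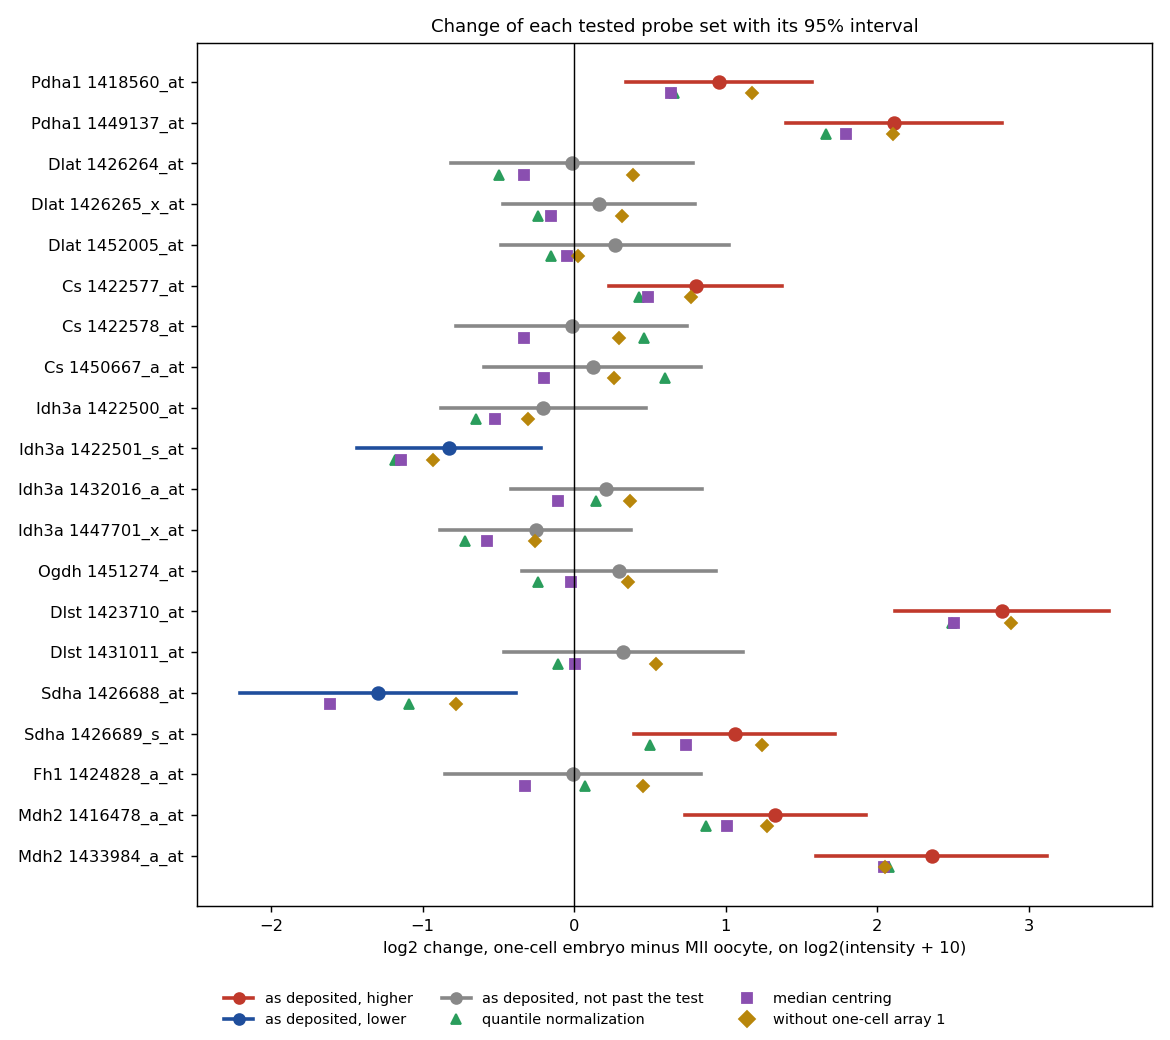
Log2 change of each tested probe set with its 95% interval on the deposited scale (circles and lines), with the values after quantile normalization, after median centring and without one-cell array 1 set just below. Pdha1 1449137_at, Dlst 1423710_at and both Mdh2 probe sets stay to the right of 0 in every setting shown, while several grey probe sets, those of Dlat and Fh1 among them, fall on both sides of 0.

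The calls depended on the scaling. Over all probe sets, 60.2% of the calls were higher on the deposited scale, 48.6% after quantile normalization and 50.7% after centring, and the median change moved from 0.17 to -0.12 and -0.15. The shares of all probe sets called higher and lower were 19.3% and 12.8% on the deposited scale. They were 14.5% and 15.4% after quantile normalization and 12.6% and 12.2% after centring. For the enzymes, the 7 higher and 2 lower became 5 and 1, and 4 and 1. Their median moved from 0.24 to 0.11 and -0.08, which lay 0.07, 0.23 and 0.07 above that of all probe sets. That gap was 0.25 with array weights, 0.48 after quantile normalization without one-cell array 1, 0.63 without one-cell arrays 1 and 4, and -0.09 without one-cell array 3. One-cell arrays varied more than MII arrays in 15 of the 20 probe sets, as in 70.1% of all those tested. One-cell array 1 was the lowest of its group in 10 of the 20 and the highest in 5.

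Changes were next compared between subunits of one enzyme by their log2 ratio on each array, which an overall scaling of the array moves little. The pairs were drawn up after the values had been seen and join probe sets whose changes are given above, so the ratios are a description with no test. Only the change of a ratio is meaningful, since probe sets differ in brightness. The ratio of Pdha1 1418560_at to Pdhb, the beta subunit of E1, was -2.57, -2.0, -2.41 and -1.94 on the MII arrays and -0.32, -0.98, -0.15 and 0.29 on the one-cell arrays. The groups did not overlap, and the ratio rose by 1.94. By Pdha1 1449137_at it rose by 3.10, also without overlap. Against Dlat 1426265_x_at the same 2 probe sets of Pdha1 rose by 0.79 and 1.95, both without overlap. They rose by 0.97 and 2.13 against Dlat 1426264_at, also without overlap. Against Dlat 1452005_at they rose by 0.68 with overlap and by 1.84 without.

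For 2-oxoglutarate dehydrogenase and succinate dehydrogenase the outcome turned on the probe set. The ratio of Ogdh to Dlst by 1423710_at was 0.19, 1.03, 1.68 and 1.97 on the MII arrays and -1.30, -1.65, -1.62 and -0.67 on the one-cell arrays, a change of -2.53 without overlap. By Dlst 1431011_at the change was -0.03, and the groups overlapped. The ratios of Sdha 1426688_at to Sdhb, Sdhc and Sdhd changed by -3.07, -1.64 and -3.57, each without overlap. By Sdha 1426689_s_at they changed by -0.72, 0.71 and -1.22, each with overlap. The positive change against Sdhc leaned on one-cell array 1, where the ratio was 1.54. It was -1.24, -0.03 and -1.72 on the other one-cell arrays, beside -1.35, -0.90, -1.81 and -0.21 on the MII arrays. Sdhc entered by its brightest probe set, which read 48 on one-cell array 1 and 348 to 776 on the others. Its other tested probe set was not used in the ratios, so the sign against Sdhc is not settled. Within genes, the change of the ratio of Sdha 1426688_at to 1426689_s_at was -2.35, and that of Dlst 1423710_at to 1431011_at was 2.50. The ratio of Idh3a to Idh3g fell by every tested probe set of Idh3a. By 1432016_a_at it changed by -1.35 with overlap. By 1422500_at, 1422501_s_at and 1447701_x_at it changed by -1.76, -2.38 and -1.81, each without overlap.

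**Figure D3:**
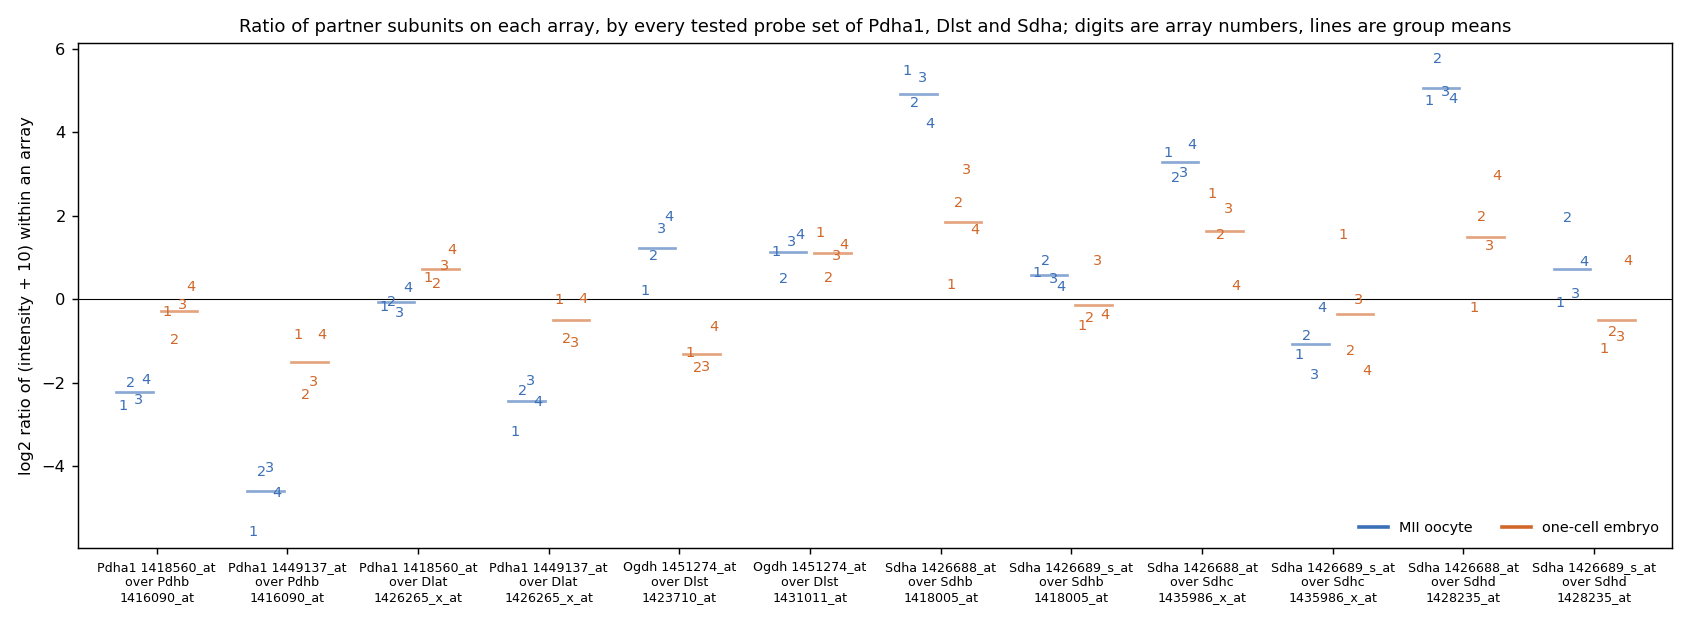
Log2 ratio of (intensity + 10) of an enzyme to a partner subunit or component on every array, by each tested probe set of Pdha1, Dlst and Sdha (digits are array numbers, lines are group means; MII oocytes in blue, one-cell embryos in orange). Both Pdha1 probe sets gain on Pdhb (1.94 and 3.10), while the ratio of Sdha to Sdhc changes by -1.64 or 0.71 and that of Ogdh to Dlst by -2.53 or -0.03, depending on the probe set. The 0.71 leans on one-cell array 1, at 1.54, with the other one-cell arrays at -1.72 to -0.03.

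The other genes of the pathway were taken from lists of their known roles, chosen with earlier results of these data known. Over all genes 20.1% were higher and 14.7% lower. In the list of pyruvate import and the pyruvate dehydrogenase complex, 1 of 7 measured genes rose (Pdha1) and 2 fell. Pdhb fell from 1176 ± 339 to 612 ± 269 (SD, n = 4; -0.99 ± 0.34, adjusted p = 0.0326), and Mpc1, a subunit of the mitochondrial pyruvate carrier, from 597 ± 99.8 to 315 ± 161 (-1.08 ± 0.39, adjusted p = 0.0424). Both pairs of groups overlapped, and the calls were lost without one-cell array 1 (-0.78 and -0.62, adjusted p = 0.0661 and 0.0794), after centring (adjusted p = 0.0817 and 0.101) and after quantile normalization (adjusted p = 0.0547 and 0.0557). With the control covariate Pdhb changed by -0.51 (adjusted p = 0.310) and Mpc1 by -0.22 (adjusted p = 0.633), and without one-cell arrays 1 and 4 by -0.46 and -0.49. Leaving out MII array 1 (adjusted p = 0.109 and 0.108), MII array 3 (0.0841 and 0.079) or one-cell array 4 (0.108 and 0.0641) ended both too, and leaving out MII array 4 that of Mpc1 (0.0893). Dld, the E3 component shared with 2-oxoglutarate dehydrogenase, changed by 0.54 ± 0.42 and Pdhx, the E3-binding protein, by -0.33 ± 0.44, and neither passed (adjusted p = 0.374 and 0.630).

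Among the kinases and phosphatases that switch pyruvate dehydrogenase, 0 of 5 measured genes rose and 3 fell, beside 20.1% and 14.7% of all genes. Pdk1, a kinase that inactivates E1, read 3078, 2713, 3156 and 3773 in oocytes and 379.9, 829, 1235 and 819 in embryos. The groups lay far apart, with a change of -2.05 ± 0.34 (adjusted p = 0.000226), and its other tested probe set fell by 2.33 (adjusted p = 0.000289). Pdp1, the catalytic subunit of the opposing phosphatase, changed by -1.63 ± 0.36 (adjusted p = 0.00215) and Pdpr, the regulatory subunit of that phosphatase, by -1.24 ± 0.30 (adjusted p = 0.0042). The kinase Pdk3 (0.31 ± 0.38) and the phosphatase Pdp2 (0.56 ± 0.44) did not pass. Pdk1, Pdp1 and Pdpr passed in all 21 alternatives.

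Of 16 measured citric acid cycle genes, members included, 6 rose and 2 fell, beside 20.1% and 14.7% of all genes. The 2 were Suclg2 and Sdha. Sdha is counted by its brightest probe set, although its tested probe sets gave opposite calls and its direction is not settled. One of the 6, the regulatory subunit Idh3b of isocitrate dehydrogenase, passed the filter through the embryo arrays alone, and without it 5 of 15 rose. Idh3b read 4.9 to 21.8 in oocytes, below each array's median, and 66.2 to 204 in embryos, and its change (2.50 ± 0.46) is a description only. Beside Dlst and Mdh2, the other regulatory subunit, Idh3g, rose (1.56 ± 0.40, adjusted p = 0.00623). Idh3g missed the threshold with the control covariate (0.76, adjusted p = 0.0868) and without one-cell arrays 1 and 4 (0.89, adjusted p = 0.0503). The iron-sulfur subunit Sdhb of succinate dehydrogenase rose from 59.2, 75.4, 53.6 and 94.3 to 255, 340.1, 179 and 303 (1.78 ± 0.31, adjusted p = 0.000327). The membrane anchor Sdhd rose by 2.28 ± 0.45 (adjusted p = 0.000906), with 3 of 4 oocyte arrays above their medians. The other anchor, Sdhc, did not pass by its brightest probe set (0.35 ± 0.59, adjusted p = 0.714), which read 48 on one-cell array 1 and 348 to 776 on the others. Without that array it rose by 1.16 ± 0.33 (adjusted p = 0.0124), and its other probe set rose with all arrays (1.24 ± 0.29, adjusted p = 0.00318). Suclg2, the GTP-specific subunit of succinyl-CoA synthetase, fell by 1.07 (SE 0.29, adjusted p = 0.00851). Its fall missed the threshold with the control covariate (adjusted p = 0.0757) and without one-cell arrays 1 and 4 (adjusted p = 0.0585).

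In the list of NADP-linked, cytosolic and anaplerotic enzymes, 6 of 13 genes rose and 2 fell, beside 20.1% and 14.7% of all genes. The aspartate aminotransferases Got1 (3.05 ± 0.34, adjusted p = 5.64e-06) and Got2 (1.65 ± 0.28, adjusted p = 0.000299), which work in the malate-aspartate shuttle, rose, although Got1 was above the median on only 2 of 4 oocyte arrays. So did the mitochondrial malic enzyme Me2 (2.38 ± 0.31, and 0.70 with adjusted p = 0.0832 as the mean of its probe sets) and the cytosolic aconitase Aco1 (2.51 ± 0.42). The cytosolic malate dehydrogenase Mdh1, the partner of Mdh2 in that shuttle, fell from 3828 ± 688 to 1508 ± 663 (SD, n = 4; -1.45 ± 0.37, adjusted p = 0.00566). Of its other 3 tested probe sets, 2 fell (-1.82 and -2.22) and 1 did not pass (-1.14 ± 0.46), and the brightest missed the threshold with the control covariate (adjusted p = 0.0741). The cytosolic NADP-dependent isocitrate dehydrogenase Idh1 fell by 1.55 (SE 0.30, adjusted p = 0.000862).

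Genes for attaching lipoate, the cofactor of Dlat and Dlst, and for assembling succinate dehydrogenase held 4 rises and 1 fall among 7, and 3 rises among 6 without Sdhaf3, which passed the filter through the embryo arrays alone. The lipoyl transferase Lipt1 rose by 1.92 ± 0.29 (adjusted p = 0.000108), with a second probe set at -1.03 ± 0.42 that did not pass and a mean over both of 0.44 (adjusted p = 0.254). The assembly factors Sdhaf1 (0.83 ± 0.29) and Sdhaf2 (1.18 ± 0.34) rose and Sdhaf4 fell (-1.11 ± 0.26, adjusted p = 0.00327). The call of Sdhaf1 (adjusted p = 0.0362) was lost in 12 of 21 alternatives, after both scalings and without any 1 of MII arrays 1, 2 and 3 or one-cell arrays 2, 3 and 4 among them (adjusted p up to 0.422). Sdhaf2 missed it after quantile normalization (0.73, adjusted p = 0.135), after centring (0.87, adjusted p = 0.129) and without MII array 4 (0.94, adjusted p = 0.0512). Sdhaf3, at 3.1 to 30.7 in oocytes and 42.3 to 128 in embryos, missed the threshold with the control covariate (adjusted p = 0.0562). Over the 38 measured list genes that are not among the 9, 14 rose and 9 fell (12 of 36 and 9 without Idh3b and Sdhaf3), beside 20.1% and 14.7% of all genes, with a median change of 0.36 against 0.16 for all genes.

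The genes whose signal followed that of Dlst 1423710_at most closely over the 8 arrays were Amz2, Wdr48 and Cript, with Pearson correlations of 0.992, 0.991 and 0.990 among 11585 genes searched. The arrays share their 2 groups, so these values mainly describe genes that also rose; the 3 changed by 1.99 ± 0.32, 1.75 ± 0.28 and 1.84 ± 0.29.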

How the data were processed

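Values are the linear intensities that the authors deposited, 1 for each probe set on each array. Per the labels, biotin-labelled RNA was hybridized after 2 rounds of in vitro transcription. No array software or build is named in those sources, so coordinates are not printed. The trimmed means (150.0 to 150.5, leaving out the lowest and highest 2%) show scaling to a common mean. Of 45101 probe sets, 64 controls were left out of the test. Symbols come from GEO's platform annotation, updated through RefSeq gene identifiers; 34945 probe sets have 1 symbol, 932 several and 9160 none. Some genes of the lists are not reported here.

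Intensities plus 10 were log2-transformed, and the 23336 probe sets above the array median on at least 4 of 8 arrays went into limma 3.58.1 (R 4.3.3): lmFit, then eBayes with trend, both tails, and Benjamini-Hochberg adjustment over all of them, with a threshold of 0.05. Errors are limma SEs unless marked SD. The number of arrays limits the precision. The main fit did not pair the arrays by replicate number. The 9 members and all lists were chosen with earlier results of these data known. All members were named, with up to 4 genes in each direction per list by smallest p and the partner subunits. The other probe sets of list genes, the ratios of subunits, the counts without genes above the median in 1 stage only, the fit without one-cell arrays 1 and 4 and that after quantile normalization without array 1 were chosen after seeing the data.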

Additional observations from a re-analysis of the deposited data

Results flagged for a closer look

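In 2 of the 50 groups of 4 arrays examined (25 probe sets in both stages), 1 array lay far from the other 3 by Dixon's test; chance flags about 1 group in 20. Both were one-cell array 1, on probe sets too dim to enter the comparison. Dlst 1437775_at read 122.1 there, while the other embryo arrays read 3 to 8.1. Ogdh 1445632_at read 12.5 against 2.3 to 3.3.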

How the results depend on the processing

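Of 398 refits of single member probe sets, 358 kept their direction or their lack of a call, 38 lost a call, 2 gained one and 0 turned a called direction. Pdha1 1449137_at, Dlst 1423710_at, Mdh2 1416478_a_at and Mdh2 1433984_a_at passed in all 20 alternatives. The 7 member probe sets called higher became 4 after median centring, where 12.6% of all probe sets were higher against 19.3% in the main fit. They became 4 at an adjusted p under 0.01, for which no share of all probe sets is given. The 2 called lower became 1 after quantile normalization (with all arrays and without one-cell array 1), after centring, with no filter, with the replicate number as a block, with the hybridization controls as a covariate and without one-cell arrays 1 and 4, and 0 with no variance trend and at an adjusted p under 0.01. With 1 array left out the members had 4 to 7 higher and 0 to 2 lower, the fewest higher without one-cell array 3 and 0 lower without MII array 1 or 3. Among the 47 measured list genes, members included, 17 were higher and 10 lower, beside 20.1% and 14.7% of all genes. The lower count became 5 with the control covariate and 5 without one-cell arrays 1 and 4. The share of all probe sets called lower fell too, from 12.8% to 9.2% and 11.3% in these 2 fits. With 1 array left out, 13 to 20 list genes were higher and 7 to 11 lower. Deviations of same-numbered arrays correlated between -0.16 and 0.14. With 4 arrays per stage, these values cannot show whether same-numbered arrays were handled together. With the replicate block 6 member probe sets were higher and 1 lower, beside 18.5% and 12.4% of all probe sets. Offsets of 1 and 50 and array weights changed no member count. Probe sets near the array median have poorly set levels, and no detection calls were used.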
